A study of Mus musculus with 3 samples.

Results

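The genes described here make and control the DNA replication machinery of mouse cells, 47 in all. They encode the origin recognition complex, the licensing factors, the helicase and its activators, the clamp and its loader, the polymerases, and enzymes of flap removal, ligation, nucleotide synthesis and chromatin assembly. Members were chosen by name, and their probes were found through the RefSeq accession of each probe. Of the 47 genes, 45 had at least 1 probe, 56 probes in all, among 18350 named genes on the array. Rpa1 and Rrm2 could not be matched to a probe by accession and are not analysed here.

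RNA came from C2C12, an established line of mouse muscle precursor cells, or myoblasts, which fuse into myotubes in low serum. It was hybridised to one-colour Agilent whole mouse genome arrays, with 1 array for each of 3 groups. The first group was untreated myoblasts. The second group, BIO cellulates, came from myotubes. Cells had fused during 8 days in medium with 2% horse serum, and AraC, which blocks DNA synthesis, was present at 10 µM from day 2 to day 4. The myotubes were taken apart into cellulates with myoseverin, a microtubule-binding compound, for 48 h, and BIO, an inhibitor of the kinase GSK-3, was added 24 h after myoseverin for 2 days. The sources disagree on doses, with BIO at 2.5 µM in the sample labels and 10 µM in the protocol and series text, and myoseverin at 20 µM in the series text and 30 µM in the protocol. The third group, neurogenic cellulates, was BIO cellulates that were given 250 nM reversine for 48 h and then kept for 7 days in an N2-supplemented neural medium with 1.5 µM all-trans retinoic acid. Neither intact myotubes nor cellulates lacking BIO had an array analysed here, so fusion, AraC, myoseverin and BIO cannot be told apart in the second group, nor can reversine, medium, retinoic acid and time in the third.

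DNA is copied once per cell cycle because origins are licensed in G1 and fired in S phase. The origin recognition complex, Cdc6 and Cdt1 load a ring of Mcm2 to Mcm7 onto DNA, geminin (Gmnn) blocks Cdt1 after licensing, and the kinase Cdc7 with Dbf4, together with Cdc45, the GINS complex and Mcm10, turns the ring into an active helicase. Cycling myoblasts express these genes under E2F transcription factors, and myoblasts leave the cell cycle when they fuse.

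Values below are log2 signals relative to the 75th percentile of each array, called scaled log2 signals, where 0 is that percentile. A probe counts as measured on an array when the scanner software called it well above background. "At least" marks a gene measured on 1 of the 2 arrays compared, and there the measured signal was set against whichever was higher on the dim array, the probe itself or the weakest probe that passed the background call. Each group has 1 array, so no p-value and no spread between cultures could be had, and the number of cultures pooled for an array is not given in the labels. The only repeat measure was spots of the same probe, for probes printed 10 times on an array. Spots of 115 to 125 such probes per array, all well above background, were used. From their spread, 95% of differences between single bright spots would lie within 1.38-fold between myoblasts and BIO cellulates, 1.30-fold between the cellulate groups and 1.34-fold between myoblasts and neurogenic cellulates. This covers spot error only, and fewer cycling cells in a culture and less RNA per cell cannot be told apart.

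Of 43379 non-control spots per array, 45.7% to 50.7% were well above background and 0 were saturated. The lowest scaled log2 signal well above background was -3.73 on the myoblast array, -2.73 on the BIO array and -2.57 on the neurogenic array, so a weak gene is more easily measured in myoblasts. Markers of cell identity were read beside the replication genes. All 8 terminal muscle markers were well above background in myoblasts and BIO cellulates and 7 in neurogenic cellulates, and their summed signal, in multiples of the 75th percentile, was 73.8, 3930 and 2775. Mitotic markers had summed signals of 146, 17.9 and 14.8. The 4 measured on every array were at least 2-fold lower in both cellulate groups than in myoblasts. Top2a was measured on the neurogenic array alone, at least 2.46-fold higher there than in myoblasts. Aurkb was not well above background on any array. The myoblast list had 5 of 6 markers measured on each array, with Myf5 dim on all of them. Of 7 neuronal markers, 3, 3 and 4 were measured, and Nefl, Syp and Snap25 were dim on all 3 arrays. Tubb3 and Map2 were 1.96-fold and 2.31-fold lower in neurogenic cellulates than in myoblasts, and Rbfox3 had scaled log2 signals of -1.77, -1.40 and -1.77. Nefm was measured on the neurogenic array alone, at least 4.60-fold higher there than in myoblasts, so the higher count is not a rise of the list. Glial markers (3, 2 and 2 of 4), fibroblast markers (2 of 4) and adipocyte markers (2 of 4) were measured in part. The fibroblast gene Dcn had scaled log2 signals of -0.66, -0.64 and 2.06, and Thy1 of -1.45, -0.63 and -0.77. The fibroblast genes Pdgfra and Lum were dim on all 3 arrays, so Dcn does not stand for its list. The part of these cell identities in the results below was not tested.

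The promoters of the members were searched for the letters that E2F factors bind, because so many of the genes were lower together. RefSeq windows of assembly GRCm38.p6, from 250 bases before to 50 bases after each start site, were found for 39 of the 47 genes. Gins1, Gins2, Gins4, Gmnn, Mcm4, Pole, Prim2 and Rfc2 had no entry. The letters TTTCCCGC, TTTGGCGC, TTTCGCGC or TTTGCCGC, on either strand, occurred in 14 of the 39 (35.9%), compared with 2.61% of 27025 genes and 3.29% of 17492 protein-coding genes in the same table. These letter sets can overlap each other on opposite strands, and the 20 matches included 2 such overlapping pairs. The sequences below lie wholly before the start site, run 5′ to 3′ on the strand of the gene, and show the matched letters in capitals, so that the shared core can be compared among licensing, helicase and polymerase genes. Their positions are chr11:98907997-98908036 for Cdc6 (plus strand), chr8:95633502-95633541 for Gins3 (plus), chr8:75109340-75109383 for Mcm5 (plus), chr5:138172025-138172064 for Mcm7 (minus), chr4:108579411-108579450 for Orc1 (plus), chr4:34614960-34614999 for Orc3 (minus) and chrX:93632270-93632309 for Pola1 (minus).
Cdc6: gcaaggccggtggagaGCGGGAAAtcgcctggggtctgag
Gins3: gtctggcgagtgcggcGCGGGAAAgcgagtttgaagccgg
Mcm5: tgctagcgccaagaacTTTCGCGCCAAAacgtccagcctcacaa
Mcm7: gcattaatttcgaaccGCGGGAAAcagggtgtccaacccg
Orc1: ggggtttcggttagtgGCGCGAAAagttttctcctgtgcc
Orc3: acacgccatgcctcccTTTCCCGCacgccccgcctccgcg
Pola1: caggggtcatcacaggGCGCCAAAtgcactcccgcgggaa

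Mcm6 held the most matches, 3, and its whole 250 bases before the start site (chr1:128359706-128359955, minus strand) are shown because a pair of them overlaps there, starting 110 bases before the start site, with the third match starting 47 bases before it.
Mcm6: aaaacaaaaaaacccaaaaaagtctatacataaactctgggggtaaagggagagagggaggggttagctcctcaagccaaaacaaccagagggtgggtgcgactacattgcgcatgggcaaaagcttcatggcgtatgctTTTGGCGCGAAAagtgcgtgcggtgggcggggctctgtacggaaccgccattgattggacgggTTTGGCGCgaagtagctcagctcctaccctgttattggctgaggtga

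A match is a description of letters and shows no binding. Matches were found in 10 of 19 windowed genes that were at least 2-fold lower in BIO cellulates on probes measured on both arrays (Cdc6, Cdt1, Gins3, Lig1, Mcm3, Mcm6, Mcm7, Pold1, Pole2 and Rfc3). They were found in 4 of 18 other windowed genes with a probe. Of these 4, Orc1 was measured on both arrays and was 1.08-fold lower in BIO cellulates. Mcm5 was lower by a bound, Pola1 was measured on neither array and Orc3 gave no fold, so the 18 are not all genes shown to be unchanged. By probe strength, 7 of 17 windowed genes with a mean signal above the 75th percentile held a match, as did 7 of 20 below it. The CCAAT letters occurred in 59.0% of member windows by gene, compared with 41.1% of all genes, and TTTGAA, the cell cycle homology letters, in 15.4% compared with 20.2%.

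**Figure D1:**
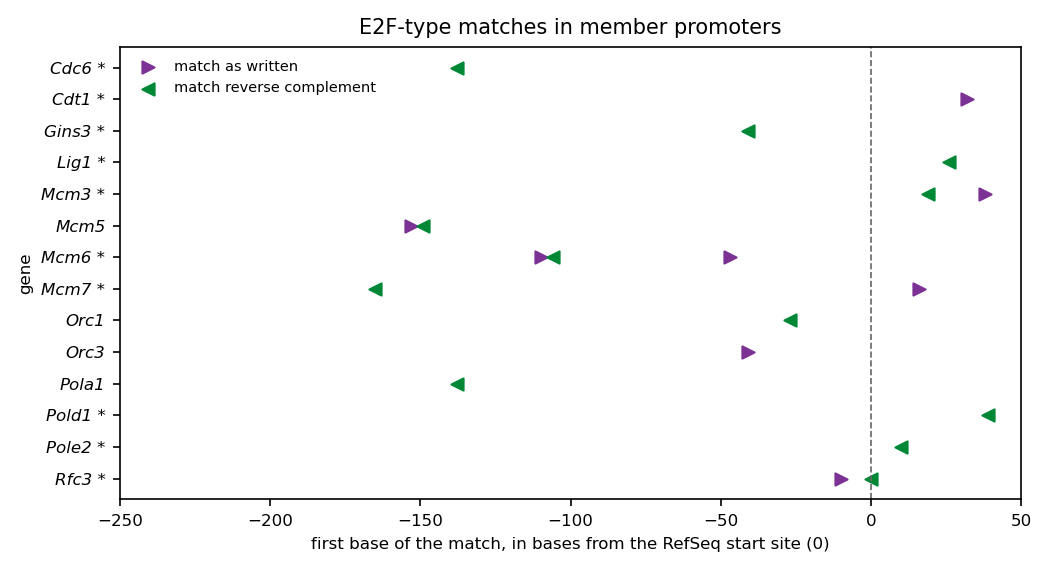
Position of each E2F-type match (first base of the match, in bases from the RefSeq start site at 0) in the 14 member promoters that hold one, with triangles pointing right for a match as written and left for its reverse complement. Genes with an asterisk were at least 2-fold lower in BIO cellulates on probes measured on both arrays; 12 of the 20 matches end before the start site.

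BIO cellulates had less RNA of most replication genes than myoblasts. Of 36 members compared, 22 were at least 2-fold lower and 1, Rfc4, was at least 2-fold higher. Over all 12826 genes compared, 6.00% were at least 2-fold lower and 11.2% at least 2-fold higher. With arrays scaled to their medians, 26 members were lower and 0 higher, and of all genes 28.8% were lower and 2.88% higher. Quantile normalisation gave 6.30% and 6.40% of all genes, spike-in scaling 8.42% and 9.38%, and a percentile over probes measured on all arrays 4.32% and 14.4%. The median log2 ratio of the members was -1.56, while that of all genes was 0. With only genes measured on both arrays, 21 of 31 members were lower and 1 was higher, beside 6.13% and 8.43% of all such genes. Cdc45, Gins4, Mcm2, Mcm4, Orc2, Pola1, Pole, Rfc1 and Rpa2 were measured on neither array and are not among the 36.

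Neurogenic cellulates differed from BIO cellulates by less than 2-fold in most members, and the higher ones had mean signals below the 75th percentile. Among 40 members compared, 8 passed 2-fold upwards and 0 downwards, beside 4.16% and 1.80% of 12255 genes. After normexp background correction 2 passed upwards and 0 downwards, beside 1.63% and 0.571% of all genes. With spike-in scaling 13 passed upwards and 0 downwards, beside 7.80% and 0.685% of all genes, and with the percentile over probes measured on all arrays 12 and 0, beside 5.62% and 1.11%. Of these 8, only Cdt1 and Tk1 were measured on both arrays (2 higher and 0 lower of 30 such members, beside 2.45% and 1.41% of such genes), and Mcm2, Mcm4, Mcm5, Mcm10, Rfc1 and Rrm1 were called through bounds. The median was 0.08, against -0.17 over all genes, and it was -0.10 among the 30 members measured on both arrays.

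Against myoblasts, neurogenic cellulates had 22 of 41 members lower and 11 higher by 2-fold or more, beside 10.0% and 12.1% of 12855 genes. Of 34 members measured on both arrays, 22 were lower and 6 higher, beside 11.0% and 9.35% of such genes. The median was -1.25, against -0.06 over all genes. With each array scaled to its median signal, 27 members were lower and 8 higher, beside 38.9% and 5.05% of all genes. After normexp 21 members were lower and 3 higher, beside 8.93% and 4.10% of all genes. Spike-in scaling gave 6.33% of all genes lower and 15.6% higher, and the percentile over probes measured on all arrays 4.82% and 18.1%. The comparisons share arrays, so their values for a gene are not independent of each other.

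**Figure D2:**
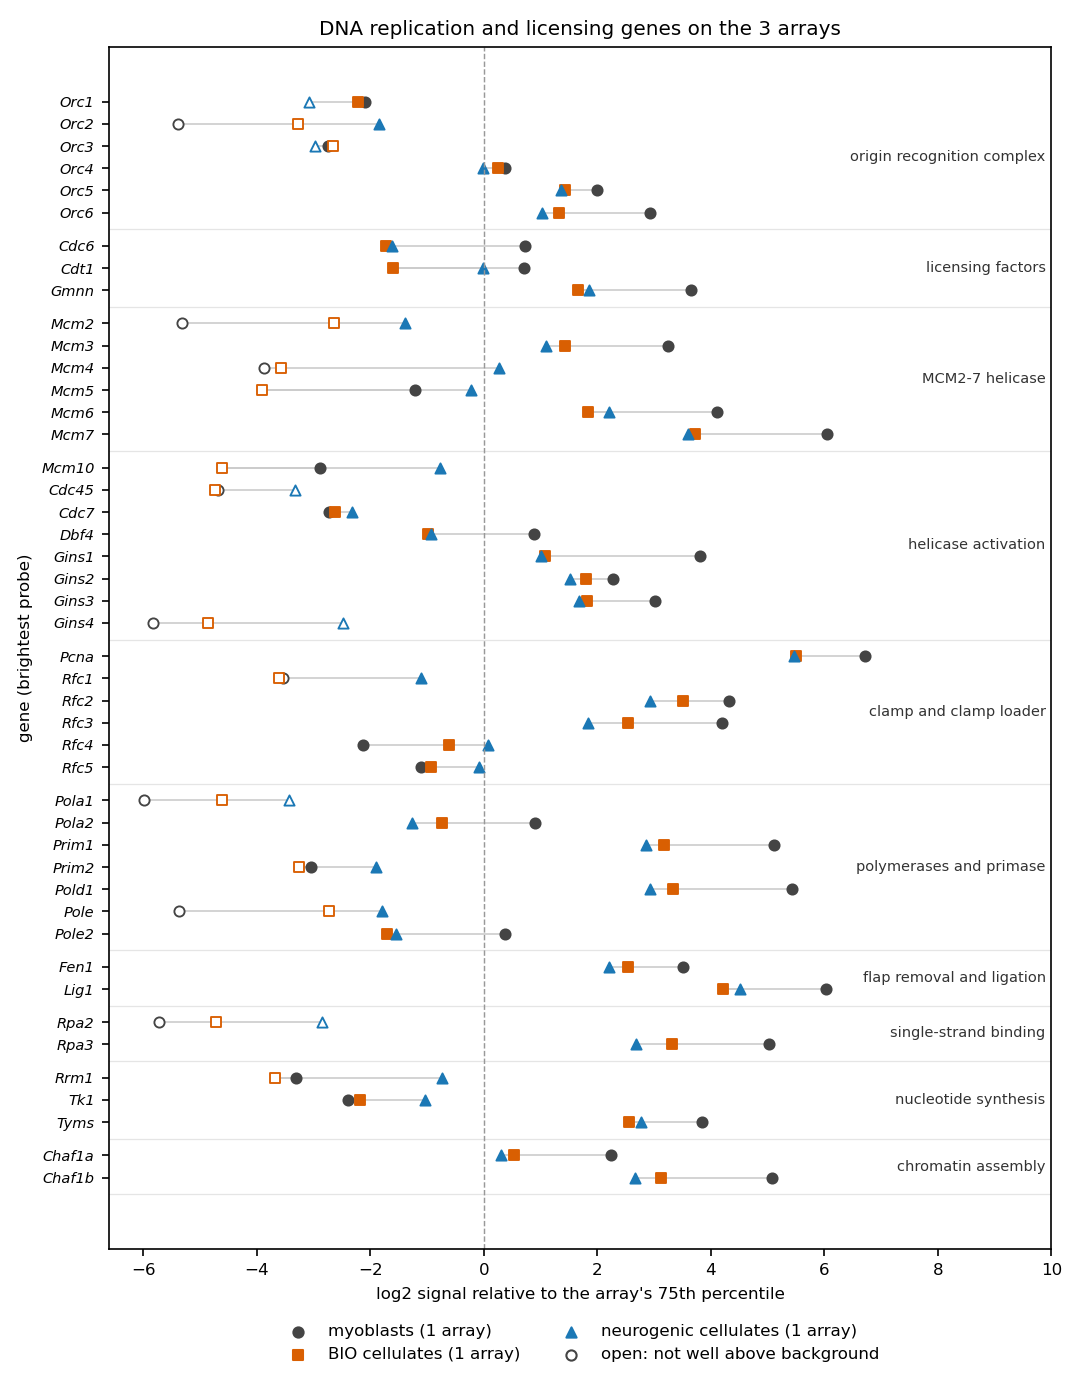
Scaled log2 signal (x axis, 0 is the array's 75th percentile, dashed) of the brightest probe of each of the 45 genes on the 3 arrays, with 1 array per group and genes grouped by role. Open symbols were not well above background; for the genes to the right of the dashed line, myoblasts sit highest in all but Rfc4 and Mcm4, which have 1 array each just past it.

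The origin recognition complex marks origins on DNA throughout the cycle, and its subunits did not share one order. Orc6, its smallest and loosely held subunit, had scaled log2 signals of 2.93 in myoblasts, 1.33 in BIO cellulates and 1.03 in neurogenic cellulates, and was 3.03-fold and 3.72-fold lower in the cellulate groups than in myoblasts. Orc5, a core subunit, read 1.99, 1.43 and 1.36, which is 1.48-fold and 1.55-fold lower. Orc4, also a core subunit, read 0.37, 0.26 and -0.01, and its BIO to myoblast difference of 1.08-fold was within the spot error. Only Orc6 of these passed 2-fold.

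The other origin subunits had weak probes. Orc1, the subunit whose protein is destroyed after licensing, read -2.10 in myoblasts and -2.21 in BIO cellulates and was not well above background in neurogenic cellulates, where it was at least 1.39-fold lower than in myoblasts. Orc2 was well above background in neurogenic cellulates alone, at -1.85, and was at least 3.69-fold higher there than in myoblasts and at least 1.85-fold higher than in BIO cellulates. Orc3 was measured in myoblasts alone, and its brightest probe, at -2.74, -2.66 and -2.97, was too near background to give a fold. A second Orc3 probe read -2.72 in myoblasts and -4.90 and -4.75 in the cellulates, where it was dim, and the third was dim on all arrays. The brightest probes of this complex thus showed 1 of 5 compared members at least 2-fold lower in BIO cellulates, beside 6.00% of all genes. With both arrays required it was 1 of 4, beside 6.13%. Counts this small do not set the complex apart from all genes.

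The licensing factors were all lower in BIO cellulates. Cdc6, the loader that joins the origin complex in G1, read 0.72 in myoblasts, -1.73 in BIO cellulates and -1.61 in neurogenic cellulates, so it was 5.47-fold and 5.05-fold lower than in myoblasts. A second Cdc6 probe was dim on every array. Cdt1, which brings the helicase ring to the origin, read 0.71, -1.60 and -0.01. It was 4.96-fold lower in BIO cellulates than in myoblasts and 3.03-fold higher in neurogenic than in BIO cellulates, which left neurogenic cellulates 1.64-fold below myoblasts. Gmnn, the inhibitor of Cdt1, read 3.65, 1.65 and 1.85, so it was 4.00-fold and 3.50-fold lower in the cellulates. Cdc6 and Gmnn thus stood close together on the 2 cellulate arrays (1.08-fold and 1.14-fold apart), while Cdt1 did not.

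The helicase ring subunits formed 2 sets by how strong their probes were. Mcm7 read 6.04 in myoblasts, 3.73 in BIO cellulates and 3.60 in neurogenic cellulates, and was 4.96-fold and 5.42-fold lower in the cellulates. Mcm6 read 4.10, 1.84 and 2.21, or 4.81-fold and 3.72-fold lower. Mcm3 read 3.24, 1.44 and 1.09, or 3.49-fold and 4.44-fold lower. In these 3 subunits myoblasts were high and both cellulate arrays were low, and the cellulates lay within 1.29-fold of each other.

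Mcm2, Mcm4 and Mcm5, which belong to the same ring, had weak probes and a different order. Mcm5 read -1.20 in myoblasts, -3.91 in BIO cellulates (not well above background) and -0.22 in neurogenic cellulates. It was at least 2.89-fold lower in BIO cellulates than in myoblasts, at least 5.71-fold higher in neurogenic than in BIO cellulates, and 1.98-fold higher in neurogenic cellulates than in myoblasts. Mcm4 read -3.88, -3.56 and 0.27, measured on the last array only, where its intensity was 187 units beside 12.3 and 9.71 on the others. That made it at least 7.99-fold higher than in BIO cellulates and higher than in myoblasts by at least 4.00 on the log2 scale. Mcm2 read -5.32, -2.64 and -1.39, measured on the last array only, and was at least 2.37-fold and at least 5.06-fold higher there. The neurogenic reading was the highest in these subunits, whereas in Mcm3, Mcm6 and Mcm7 the myoblast reading was. For Mcm2 and Mcm4 only the neurogenic array gave a measured signal, so their order rests on bounds. Of ring genes measured on both arrays, 0 of 3 were at least 2-fold higher in neurogenic than in BIO cellulates, beside 2.45% of such genes. Against myoblasts it was 0 of 4, beside 9.35%.

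Among the factors that turn the ring into a helicase, the GINS subunits had strong probes except Gins4. Gins1 read 3.81 in myoblasts, 1.08 in BIO cellulates and 1.01 in neurogenic cellulates, and at 6.63-fold lower in BIO cellulates it had the largest difference of the members measured on both arrays. Its second probe, to another transcript accession, read 2.87, -0.02 and -0.44, or 7.38-fold and 9.88-fold lower, in the same order as the first. Gins3 read 3.01, 1.82 and 1.68, or 2.29-fold and 2.53-fold lower. Gins2 read 2.29, 1.81 and 1.52, and at 1.39-fold and 1.70-fold lower it stayed under 2-fold. Subunits of 1 complex therefore differed from 1.39-fold to 6.63-fold between the same arrays. Gins4 was dim on all 3 arrays.

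Dbf4, the subunit that switches on the kinase Cdc7, read 0.89, -0.98 and -0.93, or 3.67-fold and 3.54-fold lower in the cellulates. Cdc7 itself read -2.73, -2.62 and -2.32 by its brightest probe, with differences of at most 1.33-fold between any pair of arrays, and its other probes were dim on at least 2 arrays. The kinase and its activator therefore differed unlike each other, by probes of very different strength. Mcm10, which binds the ring as it opens, read -2.88 in myoblasts, -4.62 in BIO cellulates, where it was dim, and -0.77 in neurogenic cellulates. It was at least 3.91-fold higher in neurogenic than in BIO cellulates and 4.33-fold higher than in myoblasts. Cdc45, a part of the active helicase, was dim on all arrays.

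Pcna, the sliding clamp that holds polymerases on DNA, was the member printed 10 times on each array. Its spots averaged 6.72 ± 0.17 (SD over 10 spots) in myoblasts, 5.50 ± 0.14 in BIO cellulates and 5.47 ± 0.10 in neurogenic cellulates. The lowest myoblast spot, at 6.50, lay above the highest BIO spot, at 5.73, and above the highest neurogenic spot, at 5.64. Pcna was 2.33-fold and 2.37-fold lower in the cellulates, and the 2 cellulate arrays differed by 1.02-fold, less than the spread between spots.

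The clamp loader is built from a large subunit, Rfc1, and 4 small ones. Rfc3 read 4.20, 2.54 and 1.84, or 3.16-fold lower in BIO cellulates and 5.15-fold lower in neurogenic cellulates. Rfc2 read 4.32, 3.52 and 2.93, or 1.74-fold and 2.62-fold lower, and its second probe gave 1.70-fold and 2.33-fold. Both of these stepped down from myoblasts to BIO to neurogenic cellulates. Rfc4 went the other way, at -2.14, -0.61 and 0.07, and was 2.87-fold higher in BIO cellulates and 4.60-fold higher in neurogenic cellulates than in myoblasts. Rfc5 read -1.10, -0.94 and -0.09, or 1.12-fold and 2.02-fold higher. Rfc1 was measured in neurogenic cellulates alone, at -1.11, and was at least 3.07-fold higher than in BIO cellulates and at least 5.35-fold higher than in myoblasts. Subunits of the loader with strong probes were thus lower in the cellulates, and those with weak probes were higher in neurogenic cellulates.

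The polymerases start and extend the new strands. Pold1, the catalytic subunit of the lagging-strand polymerase delta, read 5.42, 3.34 and 2.93, or 4.24-fold and 5.62-fold lower, and its second probe gave 3.87-fold and 4.31-fold. Prim1, the catalytic primase subunit, read 5.12, 3.17 and 2.86, or 3.86-fold and 4.81-fold lower. Pole2, an accessory subunit of polymerase epsilon, read 0.37, -1.70 and -1.54, or 4.20-fold and 3.76-fold lower. Pola2, a regulatory subunit of polymerase alpha, read 0.89, -0.74 and -1.26, with log2 ratios of -1.63 and -2.16 to myoblasts. All 4 were high in myoblasts and low on both cellulate arrays. Pole, the catalytic subunit of polymerase epsilon, was measured in neurogenic cellulates alone, at -1.79, at least 3.85-fold higher than in myoblasts and at least 1.92-fold higher than in BIO cellulates. Prim2, the large primase subunit, read -3.05, -3.25 and -1.90, with the BIO value dim, and was 2.22-fold higher in neurogenic cellulates than in myoblasts. Pola1, the catalytic subunit of polymerase alpha, was dim on all arrays.

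Genes that finish and package the new DNA followed the stronger probes. Lig1, which seals the lagging-strand fragments, read 6.03, 4.22 and 4.52, or 3.51-fold and 2.85-fold lower. Fen1, which trims their flaps, read 3.51, 2.54 and 2.21, at 1.96-fold lower in BIO cellulates just short of 2-fold and at 2.46-fold lower in neurogenic cellulates past it. Chaf1b and Chaf1a, subunits of the assembly factor that puts histones on new DNA, read 5.09, 3.12 and 2.66 and 2.25, 0.53 and 0.31. They were 3.91-fold and 3.29-fold lower in BIO cellulates and 5.36-fold and 3.85-fold lower in neurogenic cellulates. Rpa3, the small subunit of the complex that coats single strands, read 5.03, 3.32 and 2.68, or 3.26-fold and 5.10-fold lower, while Rpa2 of the same complex was dim on all arrays.

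Enzymes of nucleotide supply did not share one order. Tyms, which makes thymidylate, read 3.85, 2.55 and 2.78, or 2.46-fold and 2.11-fold lower, with 2.34-fold and 2.30-fold by its second probe. Tk1, which salvages thymidine and is used as an S-phase marker, read -2.40, -2.19 and -1.03, and was 2.23-fold higher in neurogenic than in BIO cellulates and 2.58-fold higher than in myoblasts. Rrm1, the large subunit of ribonucleotide reductase, read -3.32, -3.67 (dim) and -0.74. It was at least 3.97-fold higher in neurogenic than in BIO cellulates and 5.95-fold higher than in myoblasts. Tyms was highest in myoblasts, and Tk1 and Rrm1 were highest in neurogenic cellulates.

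Because members of 1 complex parted by probe strength, they were split at a mean scaled log2 signal of 0 over the 3 arrays, a choice made after the values were seen. The 21 members above it included 16 (76.2%) at least 2-fold lower in BIO cellulates than in myoblasts and 0 higher, beside 7.51% lower and 4.68% higher among 7007 genes above the same line. Their log2 ratios ran from -2.73 for Gins1 to -0.12 for Orc4. Between neurogenic and BIO cellulates 0 of the 21 differed by 2-fold. Their log2 ratios ran from -0.70 for Rfc3 to 0.37 for Mcm6, with a median of -0.27, near the -0.23 of the 7009 genes above the line. Of those 7009 genes 1.91% were higher and 1.68% lower, so 0 of 21 does not set the members apart. Against myoblasts, 18 of the 21 were at least 2-fold lower in neurogenic cellulates, beside 14.4% of all genes above the line.

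Of the 24 members below the line, 15 could be compared between BIO cellulates and myoblasts, and 6 of these were at least 2-fold lower (Cdc6, Cdt1, Dbf4, Mcm5, Pola2 and Pole2) and 1 higher, Rfc4. Among all genes below the line that could be compared, 4.19% were lower and 19.1% higher. More of these members were thus lower than higher. Their median log2 ratio of 0 fell on bounds under 1-fold that counted as 0 (Mcm10, Orc3, Prim2 and Rrm1). It is therefore not a measured value and cannot be set against the -1.71 of members above the line. With no filter on dim probes, 6 of the 24 were higher and 7 lower, beside 35.8% and 4.43% of all genes below the line. Between neurogenic and BIO cellulates 8 of 19 were higher and 0 lower, beside 7.17% and 1.94% of such genes. Only Cdt1 and Tk1 among the 8 were measured on both arrays, and the others passed because the neurogenic array measured them, so the count by itself supports no statement about the members. Against myoblasts 11 of 20 were higher in neurogenic cellulates and 4 lower, beside 20.3% and 4.86% of such genes. Of the 11, 6 were measured on both arrays, and 5 (Mcm2, Mcm4, Orc2, Pole and Rfc1) were called through bounds. With no filter on dim probes, 15 of 24 members were at least 2-fold higher, beside 41.9% of all genes below the line. Signals this low lie near the lowest signal well above background, and single spots of dim probes had a spread of 0.34 to 0.40 on the log2 scale, compared with 0.12 to 0.18 for bright probes. The 1 neurogenic array supplies every higher value in both of the last comparisons, and its part in the result was not tested. No member has a strong and a weak probe that both gave a fold in neurogenic against BIO cellulates, so the 2 kinds of probe cannot be set against each other within a gene.

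**Figure D3:**
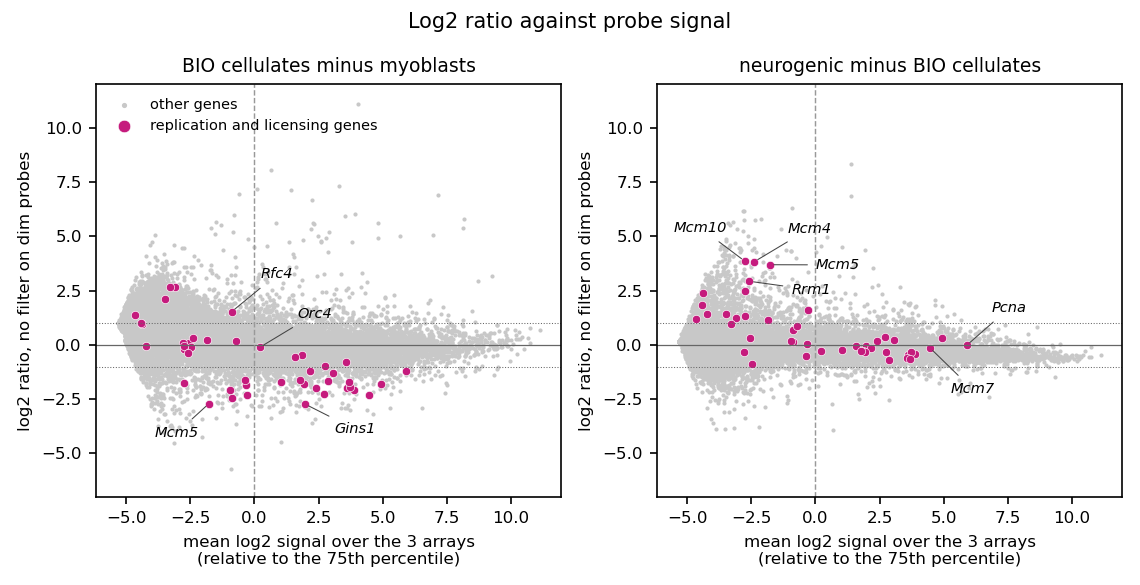
Log2 ratio of BIO cellulates to myoblasts (left) and of neurogenic to BIO cellulates (right), with no filter on dim probes, against the mean scaled log2 signal of the brightest probe over the 3 arrays, for members (magenta) and other genes (grey). Dotted lines mark 2-fold and the dashed line a mean signal of 0; on the left the members right of the dashed line lie at or below 0, and on the right those lie between -0.70 and 0.37. Left of it, most members above 2-fold in the right panel were dim on the BIO array, so their plotted ratios are not measured folds.

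Further genes of the pathway came from lists of related function. Of 19 fork accessory and checkpoint genes compared in BIO cellulates against myoblasts, 7 were at least 2-fold lower and 2 higher, with a median log2 ratio of -0.68. The lower share was 36.8%, beside 6.00% of all genes, and the higher share of 10.5% was near the 11.2% of all genes. The clamp loader cofactor gene Dscc1 had a log2 ratio of -2.30 and the checkpoint kinase gene Chek1 of -2.14, whereas the fork protein gene Wdhd1 had 2.30 and Chtf8 had 2.19. Of 22 compared in neurogenic against BIO cellulates, 1 was higher, the exonuclease gene Exo1 at 1.60, and 1 lower, Chtf8 at -2.69, shares of 4.55% each beside 4.16% and 1.80% of all genes. Of 21 E2F and RB regulators, 9 (42.9%) were lower in BIO cellulates and 1 (4.76%) higher, with a median of -0.69. Fbxo5, an inhibitor of the mitotic ubiquitin ligase, had a log2 ratio of -2.57, the S-phase cyclin gene Ccna2 of -2.35, the RB relative Rbl1 of -1.57 and E2f5 of -1.56. The higher one was Rbl2, another RB relative, at least 3.11-fold. Between neurogenic and BIO cellulates 0 of 20 such genes passed 2-fold, a count too small to set apart from the 4.16% higher and 1.80% lower of all genes.

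Histone chaperone and methylation copying genes had 3 of 11 (27.3%) at least 2-fold lower in BIO cellulates and 0 higher, with a median of -0.72. They were the histone chaperone gene Nasp at -1.80, Cdca7 at -1.65 and the histone acetyltransferase gene Hat1 at -1.39. In neurogenic against BIO cellulates 3 of 12 were higher, all by bounds, beside 4.16% of all genes. On the log2 scale these were at least 3.88 for Ssrp1, at least 1.92 for Slbp and at least 1.75 for Uhrf1. With both arrays required 0 of 9 were higher, beside 2.45% of such genes. Nucleotide supply genes had 1 of 9 (11.1%) lower in BIO cellulates, the deoxycytidine kinase gene Dck at -1.41. In neurogenic against BIO cellulates 2 of 9 were higher by bounds, Dut by at least 2.21 and Ctps by at least 1.83 on the log2 scale. With both arrays required 0 of 7 were higher. Genes that copy mitochondrial DNA, which divides outside the cell cycle, had 0 of 6 past 2-fold in each of the 3 comparisons, with a median of 0.19 in BIO cellulates against myoblasts. With 11.2% and 6.00%, 4.16% and 1.80%, and 12.1% and 10.0% of all genes higher and lower in those comparisons, 0 of 6 does not set this list apart.

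**Figure D4:**
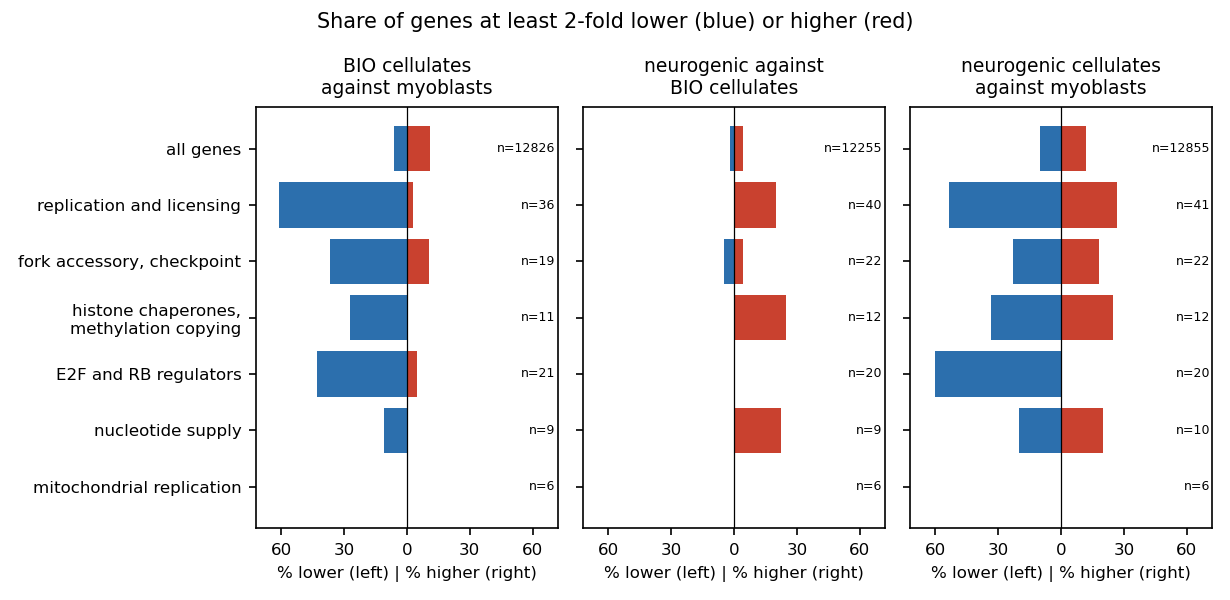
Share of genes at least 2-fold lower (blue, left) or higher (red, right) in each list and over all genes, in percent, for the 3 comparisons, with n the number of genes compared and bounds included. Replication and licensing genes show 22 of 36 lower in BIO cellulates and 8 of 40 higher in neurogenic against BIO cellulates, beside 6.00% and 4.16% of all genes.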

How the data were processed

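Gene expression was measured on 3 one-colour arrays on 1 slide. The scanner files were written by Agilent Feature Extraction 10.7.3.1 for design 014868 with build mm9, per the file headers. Their deposited intensity is linear, with background already subtracted. Labelling with Cy3 started from 200 ng of RNA, per the labels. The authors' deposited table holds log2 values that equal the log2 intensity plus 0.00, 0.67 and 0.23 for the 3 arrays (within 0.01 for all probes with a single spot) and is used as an alternative. Its medians are 7.42, 7.77 and 7.88, its columns are not centred by gene, and how the constants were set is not given in the sources used here.

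Spots that were controls or outliers were dropped, repeated spots were averaged as log2 values, and each array's log2 75th percentile (181, 115 and 156 intensity units) was subtracted. Of 41174 probes, 26918 were named through accessions in the RefSeq gene table of GRCm38.p6. A gene took its brightest probe over the 3 arrays, and a bound under 1-fold counted as a log2 ratio of 0. Every member with a probe is named. The members and lists were chosen with earlier results of these data known. The 3 comparisons were described without a test, and the functions were tested on simulated data. Alternatives were 11 other settings, run with Python 3.11.15 and limma 3.58.1. As the files hold no mean signal, normexp (offset 50) used median pixel signals.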

Additional observations from a re-analysis of the deposited data

How the results depend on the processing

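In BIO cellulates against myoblasts the median log2 ratio of the members was -2.28 with median scaling, -1.27 after normexp and -1.19 with no filter on dim probes. Under these settings 0 of 36, 0 of 36 and 6 of 45 members were at least 2-fold higher, beside 2.88%, 2.35% and 23.9% of all genes. In neurogenic against BIO cellulates the median was 0.44 with spike-in scaling, and it was slightly below 0 over genes measured on both arrays, over single probes and in the deposited values. Members at least 2-fold higher numbered 13 with spike-in scaling, 14 with no filter, and 2 after normexp, with both arrays required and in the deposited values. Of all genes, 7.80%, 5.62%, 1.63%, 2.45% and 2.47% were higher under those settings, in the same order. At 1.5-fold, 13 of 40 were higher and 3 lower, beside 8.67% and 10.3% of all genes. In neurogenic cellulates against myoblasts the median was -1.98 with median scaling and -0.90 with the percentile over probes well above background on all arrays. It was -0.94 after quantile normalisation, -1.02 with spike-in scaling and -0.98 with no filter. The higher members numbered 3 after normexp and 6 with both arrays required and in the deposited values, beside 4.10%, 9.35% and 9.56% of all genes. The cause of these differences between settings was not tested. The number of members at least 2-fold lower stayed within 1.5 times its reported value under every setting in both comparisons with myoblasts (21 to 26 and 18 to 27, compared with 22 in each). Of all genes, 4.32% to 28.8% and 4.82% to 38.9% were lower under the same settings. Median scaling moved the median of all genes to -0.66 and -0.79 in those comparisons. Of 64 differences of single members past 2-fold, 46 stayed past it after normexp and 59 or more under the other settings that kept all 64, and 0 reversed. With 1 array per group no array could be left out. No paired analysis was possible because each group has 1 array. Weak probes limit the depth: 15 of the 45 genes were not well above background on at least 1 array.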
